A study of Mus musculus with 11 samples.

Results

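Glucose and pyruvate use in the early mouse embryo was followed here through 10 genes, taken by name from the 49585 genes of the deposited expression table. They cover entry of the substrates (Slc2a1, Slc2a3, Slc16a1, Slc16a7), glycolysis (Hk1, Pfkp, Pkm), the exchange of pyruvate and lactate (Ldha, Ldhb) and entry of pyruvate into mitochondrial oxidation (Pdha1). All 10 were found in the table. The embryos were of the strain C57BL/6 and were made either by round spermatid injection (ROSI), in which the nucleus of an immature haploid male germ cell is placed in the egg, or by intracytoplasmic sperm injection (ICSI), which uses a sperm. There were 3 libraries of ROSI 2-cell embryos, 3 of ICSI 2-cell embryos, 2 of ROSI zygotes and 3 of ICSI zygotes. ROSI embryos were activated for 1 to 2 h with 5 mM SrCl2 in CZB medium free of Ca2+ before culture in KSOM, whereas ICSI embryos were cultured in KSOM. The ROSI and ICSI groups therefore differ in the paternal cell and in the activation step, and what each contributes to a difference cannot be told apart. The series title places the work in a study of H3K27me3 inherited from the father and of zygotic genome activation after ROSI. The labels do not say whether the libraries of a group came from separate sets of embryos, so p-values measure the spread between these libraries, which may be technical.

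Glucose enters cells through facilitative transporters of the Slc2a family and is broken down to pyruvate by glycolysis, while pyruvate and lactate cross the membrane through monocarboxylate transporters of the Slc16a family. Lactate dehydrogenase interconverts lactate and pyruvate, and the pyruvate dehydrogenase complex commits pyruvate to the tricarboxylic acid (TCA) cycle. Mouse zygotes are known to depend on pyruvate, with lactate as a further substrate, and to take up and use glucose mainly later in cleavage. The zygote starts with maternal transcripts stored in the oocyte, many of which are degraded by the 2-cell stage, when the major wave of transcription from the embryo's own genome takes place.

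Values are TPM, an abundance in which reads are divided by a length and each library is scaled to a total of 1000000, so that levels of different genes can be set side by side. The length that gave whole reads for most values was that of all merged exons of a gene, not of 1 transcript. In the annotation used here it ran from 1570 bases for Ldhb to 13401 for Pfkp. Levels and ratios between genes depend on these lengths, and a gene with long merged exons can appear lower. TPM are shares of a library: a lower share and fewer transcripts per embryo cannot be told apart, nor can fewer cells and less RNA per cell. Whole reads recovered from the TPM gave depths of 20.5 to 23.0 M reads (M, 1000000 reads) in ROSI 2-cell libraries, 8.48 to 32.9 M in ICSI 2-cell libraries, 30.4 and 85.9 M in ROSI zygote libraries and 70.7 to 83.0 M in ICSI zygote libraries. The tissue label was matched by its markers: 10 oocyte genes (Zp3, Gdf9 and others) summed to 966 to 1177 TPM in ROSI 2-cell, 1542 to 1557 TPM in ICSI 2-cell, 5811 and 6642 TPM in ROSI zygote and 7021 to 8097 TPM in ICSI zygote libraries. For 8 markers of the 2-cell stage (Zscan4c and others) the sums were 436 to 632 TPM in ROSI 2-cell, 886 to 921 TPM in ICSI 2-cell, 79.3 and 88.6 TPM in ROSI zygote and 84.1 to 113 TPM in ICSI zygote libraries. Cumulus cell genes (12) summed to at most 54.7 TPM, most of it in 2-cell libraries from Amhr2 (25.5 to 48.3 TPM, against at most 0.383 TPM in zygotes), and blood cell genes (4) to at most 5.87 TPM in any library. Protein-coding genes held 44.6% to 51.2% of the TPM in ROSI 2-cell, 46.6% to 51.4% in ICSI 2-cell, 65.9% and 67.6% in ROSI zygote and 71.2% to 71.5% in ICSI zygote libraries. The stage differences below are differences of shares measured against this composition.

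In every group Ldhb, the heart-type subunit of lactate dehydrogenase, had the highest level of the 10 genes. Its mean was 215 ± 33.1 TPM in ROSI 2-cell embryos, 302 ± 7.61 TPM in ICSI 2-cell embryos, 2195 ± 98.9 TPM in ROSI zygotes and 2321 ± 96.6 TPM in ICSI zygotes (SD, n = 3, 3, 2 and 3). Pkm, the pyruvate kinase of the last step of glycolysis, came next in all groups and did not overlap Ldhb in any. Pdha1, the catalytic alpha subunit of pyruvate dehydrogenase encoded on the X chromosome, was the next in zygotes of both kinds, ahead of Slc2a1 and Slc16a1. In 2-cell embryos the libraries of Pdha1 and Slc16a1 overlapped, at 31.9 to 39.9 against 32.2 to 36.7 TPM after ROSI and 31.0 to 32.9 against 25.2 to 31.9 TPM after ICSI. Slc2a1, Slc2a3 and Ldha followed as neighbours whose libraries overlapped in both kinds of 2-cell embryo. The lowest places went to Hk1, Pfkp and Slc16a7 in 2-cell embryos, and Slc16a7 stayed under 1 TPM in all 11 libraries.

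**Figure D1:**
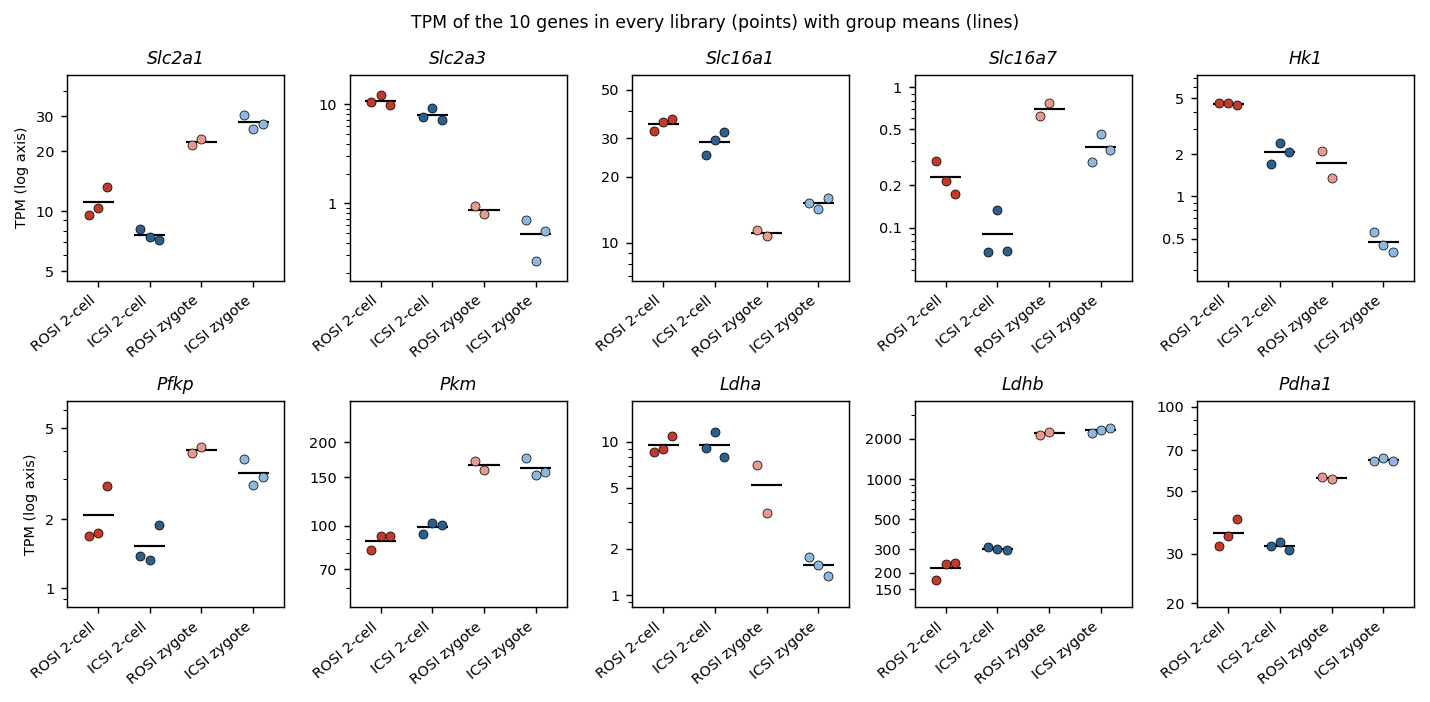
TPM (log axis, its range set for each gene) of the 10 genes in each library, with points for libraries and lines for group means. Ldhb, Pkm, Pdha1, Slc2a1, Pfkp and Slc16a7 lay lower in the 2-cell libraries than in the zygote libraries of the same injection type, and Slc2a3, Slc16a1, Hk1 and Ldha lay higher.

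Between the zygote and the 2-cell stage the members split into a group that rose and a group that fell, and each member tested went the same way after ROSI and after ICSI. Slc2a3, Slc16a1, Hk1 and Ldha rose, and Slc2a1, Pfkp, Pkm, Ldhb and Pdha1 fell. These were 9 of the 9 members that could be tested (limma on log2(TPM + 1), Benjamini-Hochberg adjusted p under 0.05 over 21938 genes), after ROSI as after ICSI. Of all genes tested 67.9% passed after ROSI, 35.6% higher and 32.3% lower in 2-cell embryos, and 68.1% after ICSI, 33.0% higher and 35.0% lower. Since most genes pass between these stages, the count alone does not set the 10 genes apart. After either injection the libraries of the 2 stages were fully apart for 10 of 10 members, against 76.1% of the genes tested after ROSI and 72.2% after ICSI. The 10 include Slc16a7, which is not among the genes tested. The log2(TPM + 1) scale understates changes of genes near or under 1 TPM, so ratios of mean TPM are given beside the log2 differences.

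Slc2a3, the high-affinity glucose transporter GLUT3, rose. It lies at chr6:122727809-122801640 on the minus strand (positions here and below from GENCODE M21 on mm10). It had 10.5, 12.5 and 9.77 TPM in ROSI 2-cell embryos and 7.40, 9.25 and 6.94 TPM in ICSI 2-cell embryos, against 0.948 and 0.777 TPM in ROSI zygotes and 0.674, 0.264 and 0.530 TPM in ICSI zygotes. Every 2-cell library was far above every zygote library. The mean was 12.6-fold higher in 2-cell embryos than in zygotes after ROSI (log2 difference 2.67, SE 0.18, limma adjusted p = 2.94e-07) and 16.1-fold higher after ICSI (log2 difference 2.57, SE 0.16, limma adjusted p = 1.45e-07). Its longest transcript carries a stretch of at least 100 bases that is at least 95% alike in 74 other genes. Those with values reached, as whole genes, at most 588 TPM and at most 2.07e+05% of the Slc2a3 level in any library. How reads of that stretch were assigned is not given in the sources used here.

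Slc2a1, the widely expressed glucose transporter GLUT1 (chr4:119108711-119137983, plus strand), went the other way. Its level was 9.55, 10.4 and 13.2 TPM in ROSI 2-cell embryos and 8.13, 7.39 and 7.16 TPM in ICSI 2-cell embryos, against 21.4 and 23.2 TPM in ROSI zygotes and 30.4, 26.0 and 27.4 TPM in ICSI zygotes. The 4 groups did not overlap one another. It fell by 0.96 on the log2 scale after ROSI (SE 0.14, limma adjusted p = 0.000119) and by 1.75 after ICSI (SE 0.13, limma adjusted p = 3.83e-07), and the zygote mean was 2.02-fold that of the 2-cell embryos after ROSI and 3.69-fold after ICSI.

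Slc16a1, the proton-coupled monocarboxylate transporter MCT1 that carries pyruvate and lactate (chr3:104638668-104658462, plus strand), rose. Its values were 32.2, 35.5 and 36.7 TPM in ROSI 2-cell embryos and 25.2, 29.6 and 31.9 TPM in ICSI 2-cell embryos, against 11.4 and 10.7 TPM in ROSI zygotes and 15.2, 14.3 and 16.1 TPM in ICSI zygotes. All 2-cell libraries were above all zygote libraries, and within each stage the ROSI and ICSI libraries did not overlap. The log2 difference was 1.57 after ROSI (SE 0.12, limma adjusted p = 7.30e-07) and 0.88 after ICSI (SE 0.11, limma adjusted p = 2.72e-05).

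Slc16a7, the high-affinity pyruvate transporter MCT2 (chr10:125219270-125389465, minus strand), was rare. It had 0.298, 0.214 and 0.174 TPM in ROSI 2-cell embryos and 0.0669, 0.134 and 0.0680 TPM in ICSI 2-cell embryos, against 0.622 and 0.770 TPM in ROSI zygotes and 0.295, 0.465 and 0.358 TPM in ICSI zygotes. The lowest of these values rested on 3 reads and the highest on 267. All zygote libraries but 1 of the ICSI group were above every 2-cell library, and that 1 lay just under the highest ROSI 2-cell library. Because no library reached 1 TPM the gene was left out of the fit. With no filter on low values the log2 difference was -0.46 after ROSI (limma adjusted p = 0.00971) and -0.33 after ICSI (limma adjusted p = 0.0302).

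Of the 3 glycolytic enzymes, Hk1 rose and Pfkp and Pkm fell. Hk1 (chr10:62268855-62379908, minus strand) encodes hexokinase 1, which phosphorylates glucose as it enters the cell. It had 4.61, 4.59 and 4.50 TPM in ROSI 2-cell embryos and 1.70, 2.39 and 2.09 TPM in ICSI 2-cell embryos, against 2.11 and 1.34 TPM in ROSI zygotes and 0.563, 0.453 and 0.402 TPM in ICSI zygotes. ICSI zygotes were the lowest group and ROSI 2-cell embryos the highest, with ROSI zygotes and ICSI 2-cell embryos overlapping between them. The mean was 2.64-fold higher in 2-cell embryos than in zygotes after ROSI (log2 difference 1.04, SE 0.18, limma adjusted p = 0.000423) and 4.36-fold higher after ICSI (log2 difference 1.05, SE 0.16, limma adjusted p = 0.000171).

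Pfkp (chr13:6579768-6648777, minus strand), the platelet-type subunit of phosphofructokinase, catalyses the committed step of glycolysis. Its values were 1.70, 1.75 and 2.79 TPM in ROSI 2-cell embryos and 1.38, 1.32 and 1.89 TPM in ICSI 2-cell embryos, against 3.92 and 4.13 TPM in ROSI zygotes and 3.68, 2.81 and 3.05 TPM in ICSI zygotes. The 2 stages were apart after each injection, although the highest ROSI 2-cell library came close to the lowest ICSI zygote library. The fall was 0.72 on the log2 scale after ROSI (SE 0.20, limma adjusted p = 0.00757), and after ICSI it fell by 0.73 (SE 0.18, limma adjusted p = 0.00377). Exons of Pfkp share 748 bases with exons of Pitrm1 on the other strand, and Pitrm1 averaged 34.6 TPM in ROSI 2-cell, 25.4 TPM in ICSI 2-cell, 47.2 TPM in ROSI zygote and 49.4 TPM in ICSI zygote libraries. The libraries were made with a stranded kit but the strand setting of the counting is not given in the sources used here, so reads of the 2 genes in that stretch may not be told apart.

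Pkm (chr9:59656368-59679375, plus strand) had 81.7, 91.9 and 92.0 TPM in ROSI 2-cell embryos and 93.5, 102 and 101 TPM in ICSI 2-cell embryos, against 171 and 159 TPM in ROSI zygotes and 176, 152 and 157 TPM in ICSI zygotes. Zygotes of both kinds were well above 2-cell embryos of both kinds. On the log2 scale Pkm fell by 0.89 after ROSI (SE 0.10, limma adjusted p = 1.39e-05) and by 0.70 after ICSI (SE 0.09, limma adjusted p = 3.64e-05).

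The 2 subunits of lactate dehydrogenase moved in opposite directions. Ldhb (chr6:142490249-142507957, minus strand) had 177, 232 and 236 TPM in ROSI 2-cell embryos and 310, 303 and 294 TPM in ICSI 2-cell embryos, against 2125 and 2265 TPM in ROSI zygotes and 2214, 2345 and 2402 TPM in ICSI zygotes. The zygote means were 10.2-fold those of 2-cell embryos after ROSI (log2 difference -3.36, SE 0.12, limma adjusted p = 3.81e-09) and 7.68-fold after ICSI (log2 difference -2.94, SE 0.11, limma adjusted p = 3.14e-09). This was the widest fall of the 9 members tested. A processed pseudogene of Ldhb, Gm5514, 98% alike over 1002 bases, reached at most 13.0 TPM and at most 1.38% of the Ldhb level in any library.

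Ldha, the muscle-type subunit (chr7:46841475-46855627, plus strand), rose. It had 8.63, 8.95 and 10.9 TPM in ROSI 2-cell embryos and 9.09, 11.6 and 7.96 TPM in ICSI 2-cell embryos, against 7.04 and 3.42 TPM in ROSI zygotes and 1.78, 1.57 and 1.34 TPM in ICSI zygotes. The 2-cell groups overlapped, and the 2 ROSI zygote libraries lay between them and the ICSI zygotes and were far apart from each other. The log2 difference was 2.03 after ICSI (SE 0.22, limma adjusted p = 9.27e-06). After ROSI it was 0.81 (SE 0.24, limma adjusted p = 0.0124), and the call was lost with the compared groups alone (limma adjusted p = 0.056). It was also lost without ROSI zygote replicate 2 (log2 difference 0.38, limma adjusted p = 0.182), where 1 ROSI zygote library remains and is assumed to vary like the other groups. Ldha resembles 5 processed pseudogenes over 139 to 1000 bases at about 96% identity. The 2 of them with values reached at most 1.84 TPM and at most 26.5% of the Ldha level in any library. The other 3, the pair with the longest matches among them, had no entry of that name among the genes with values.

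Pdha1 (chrX:160122209-160138413, minus strand) had 31.9, 34.6 and 39.9 TPM in ROSI 2-cell embryos and 31.9, 32.9 and 31.0 TPM in ICSI 2-cell embryos, against 56.4 and 55.3 TPM in ROSI zygotes and 64.3, 65.7 and 64.4 TPM in ICSI zygotes. The 2-cell groups overlapped, and the ROSI zygotes lay below the ICSI zygotes. It fell by 0.65 on the log2 scale after ROSI (SE 0.10, limma adjusted p = 0.000208) and by 1.00 after ICSI (SE 0.09, limma adjusted p = 2.63e-06).

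The smaller falls depended on what the values were relative to. With protein-coding genes alone rescaled to a common total, the median log2 difference over all genes tested moved to 0.32 (0.19 in the whole table) after ROSI and to 0.20 (0.0036 in the whole table) after ICSI. The falls of Pfkp (limma adjusted p = 0.0818 after ROSI and 0.0589 after ICSI), of Pdha1 after ROSI (log2 difference -0.18, 0.0824) and of Pkm after ICSI (-0.17, 0.0586) then no longer passed. The fall of Pkm after ICSI was also lost with quantile normalization (-0.15, limma adjusted p = 0.093). The falls of Ldhb and Slc2a1 and the rises of Slc2a3, Slc16a1, Hk1 and Ldha passed after both injections in that setting too.

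The 250 bases upstream of the annotated starts are shown for 3 of the 4 genes that rose together and for Ldhb, which fell the most, so that their promoters can be compared. They come from RefSeq on GRCm38.p6, the assembly whose chromosomes mm10 uses. A RefSeq start was matched for 8 of the 10 genes, Slc2a3 and Slc16a7 excepted. Capitals mark matches on either strand to the GC box GGGCGG, the CCAAT box CCAAT, the E box CACGTG and the core of the hypoxia response element ACGTG, the last of which lies on both strands of each E box. TATAAA was searched as well.
Slc16a1 (chr3:104638414-104638663, plus strand): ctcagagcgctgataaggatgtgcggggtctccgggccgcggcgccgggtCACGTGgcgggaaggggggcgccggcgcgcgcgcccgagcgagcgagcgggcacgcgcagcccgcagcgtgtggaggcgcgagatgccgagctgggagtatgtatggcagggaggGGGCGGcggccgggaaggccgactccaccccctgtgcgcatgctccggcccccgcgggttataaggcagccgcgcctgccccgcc
Hk1 start 1 (chr10:62379909-62380158, minus strand): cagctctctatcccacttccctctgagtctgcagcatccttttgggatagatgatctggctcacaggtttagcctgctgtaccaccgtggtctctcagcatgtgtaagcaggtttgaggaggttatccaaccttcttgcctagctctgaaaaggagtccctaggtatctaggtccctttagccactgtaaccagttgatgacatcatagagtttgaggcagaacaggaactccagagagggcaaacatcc
Hk1 start 2 (chr10:62340422-62340671, minus strand): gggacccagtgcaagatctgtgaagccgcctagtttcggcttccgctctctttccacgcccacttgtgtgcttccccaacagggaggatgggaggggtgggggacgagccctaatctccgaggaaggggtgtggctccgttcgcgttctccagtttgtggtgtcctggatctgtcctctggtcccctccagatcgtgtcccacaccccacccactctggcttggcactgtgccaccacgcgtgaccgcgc
Ldha start 1 (chr7:46845554-46845803, plus strand): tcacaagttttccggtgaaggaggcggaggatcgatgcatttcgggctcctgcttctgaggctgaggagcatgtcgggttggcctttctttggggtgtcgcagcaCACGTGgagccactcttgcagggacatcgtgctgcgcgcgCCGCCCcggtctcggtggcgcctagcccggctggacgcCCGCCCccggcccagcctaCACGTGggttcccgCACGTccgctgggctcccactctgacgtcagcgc
Ldha start 2 (chr7:46846832-46847081, plus strand): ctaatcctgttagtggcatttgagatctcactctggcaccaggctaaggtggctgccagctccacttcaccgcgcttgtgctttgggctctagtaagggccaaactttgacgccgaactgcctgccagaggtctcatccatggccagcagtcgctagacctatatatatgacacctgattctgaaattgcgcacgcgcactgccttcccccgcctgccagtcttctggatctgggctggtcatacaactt
Ldhb (chr6:142507958-142508207, minus strand): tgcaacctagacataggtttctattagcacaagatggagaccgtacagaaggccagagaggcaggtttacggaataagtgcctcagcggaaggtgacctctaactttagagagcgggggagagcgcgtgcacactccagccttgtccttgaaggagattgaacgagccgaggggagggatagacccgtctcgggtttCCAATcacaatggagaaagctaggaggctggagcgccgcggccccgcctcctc
The window of Ldha start 1 held 2 GC boxes, 2 E boxes and 5 matches to ACGTG, 4 of which are the E boxes themselves. The Slc16a1 window held 1 GC box, 1 E box and the 2 matches to ACGTG in it. Neither Hk1 window, nor that of Ldha start 2, had a match to any of the 5 motifs, and the Ldhb window held 1 CCAAT box. Windows of other members that fell, not shown, held such matches too. Slc2a1 had 2 GC boxes and 1 match to ACGTG, and Pfkp 4 GC boxes and 1 CCAAT box. Pkm had 1 GC box and 2 CCAAT boxes at start 1 and 1 match to ACGTG at start 2. The Pdha1 window had no match. Of 32851 promoter windows of the same length, 32.7% hold a GC box, 33.8% a CCAAT box, 6.02% an E box, 16.6% ACGTG and 12.4% TATAAA. These are matches of letters and say nothing of whether a factor was bound.

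ROSI and ICSI 2-cell embryos were compared at the stage in which genome activation, the process the series title names, takes place. The labels give no collection times. A difference in timing within the stage therefore cannot be told apart from the injection type. The ROSI and ICSI comparison and the stage comparisons use the same libraries and are not independent of each other. Hk1 and Slc2a1 were higher in ROSI 2-cell embryos and Ldhb was lower. These were 3 of 9 members tested, 2 higher and 1 lower, where 9.51% of all genes tested passed, 4.93% higher and 4.58% lower. For 7 of 10 members every ROSI library was on 1 side of every ICSI library, against 27.3% of the genes tested. The 7 include Slc16a7, which is not among the genes tested and rests on few reads. Slc2a1, Slc2a3, Slc16a1, Slc16a7 and Hk1 were the higher ones after ROSI and Pkm and Ldhb the lower ones. Over all genes 1082 were higher and 1005 lower after ROSI. That split was 1197 to 2023 with median-ratio scaling and 2223 to 1337 with protein-coding genes alone.

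Hk1 differed the most of the 3. Its mean in ROSI 2-cell embryos was 4.57 ± 0.0616 TPM, 2.22-fold the 2.06 ± 0.346 TPM of ICSI 2-cell embryos (SD, n = 3 each; log2 difference 0.87, SE 0.16, limma adjusted p = 0.0128). The call held in 11 of 11 fits that left out 1 library, with adjusted p between 0.0159 and 0.0412, but not when the fit was restricted to the 2-cell libraries (limma adjusted p = 0.0677). Of 12 spermatid markers tested 6 were also higher in ROSI 2-cell embryos and 0 lower, where 4.93% and 4.58% of all genes tested were. These counts cannot be weighed against those shares. Tnp1, Tnp2, Crisp2, Smcp, Odf1 and Gapdhs stayed under 1 TPM in every ICSI library. They passed the filter only through ROSI libraries, so a lower call was hardly possible for them. Ldhc, the marker with the most TPM in ICSI 2-cell embryos, did not pass (limma adjusted p = 0.715). Over the 13 listed, none of them at 0 throughout a ROSI group, TPM summed to 42.7 to 60.6 TPM in ROSI 2-cell libraries and 11.3 to 18.1 TPM in ICSI 2-cell libraries, where Tnp2 and Smcp were at 0. Their part in the Hk1 difference was not tested. Hk1 is known to have transcripts with their own first exons in mouse spermatogenic cells, which values per gene do not separate. An antisense gene, Hk1os, overlaps 157 bases of its exons and reached 0.652 to 1.40 TPM in ROSI 2-cell and 0.170 to 1.13 TPM in ICSI 2-cell libraries.

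Slc2a1 averaged 11.1 ± 1.92 TPM in ROSI 2-cell embryos and 7.56 ± 0.508 TPM in ICSI 2-cell embryos (SD, n = 3 each; log2 difference 0.48, SE 0.13, limma adjusted p = 0.0400). This call was near the threshold and was lost in 9 of the 11 fits that left out 1 library, where adjusted p ran from 0.033 to 0.0976. Ldhb was 1.41-fold higher in ICSI than in ROSI 2-cell embryos (log2 difference -0.50, SE 0.11, limma adjusted p = 0.0214). Its adjusted p was 0.0626 without ICSI 2-cell replicate 1, the shallowest library, and 0.059 without ICSI 2-cell replicate 2. Both calls were also lost with no filter on low values (limma adjusted p = 0.0635 for Slc2a1 and 0.0547 for Ldhb). Of 10 stored oocyte transcripts 5 were lower in the same ROSI libraries (Gdf9 at -0.69 and Bmp15 at -0.49 among them) and 0 higher. Of 8 markers of the 2-cell stage 6 were lower and 0 higher. Over all genes tested 4.58% were lower and 4.93% higher. Their part in the Ldhb difference was not tested.

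The other 6 members tested did not pass in 2-cell embryos, although 2 of them did under another scaling. The log2 difference was 0.43 for Slc2a3 (SE 0.16, limma adjusted p = 0.127) and 0.26 for Slc16a1 (SE 0.11, limma adjusted p = 0.151), and neither had overlapping groups. Slc16a1 passed with quantile normalization (limma adjusted p = 0.0435) and with protein-coding genes alone (limma adjusted p = 0.0337). For Pfkp the difference was 0.27 (limma adjusted p = 0.359), for Pdha1 0.14 (0.357) and for Pkm -0.16 (0.285). With median-ratio scaling Pkm passed at -0.23 (limma adjusted p = 0.0352). Ldha had the same mean to within the spread, 9.49 ± 1.22 TPM in ROSI and 9.54 ± 1.84 TPM in ICSI 2-cell embryos (SD, n = 3 each). Slc16a7, under 1 TPM, was 2.55-fold higher in ROSI 2-cell embryos by its means, and with no filter on low values its log2 difference was 0.17 (limma adjusted p = 0.469).

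**Figure D2:**
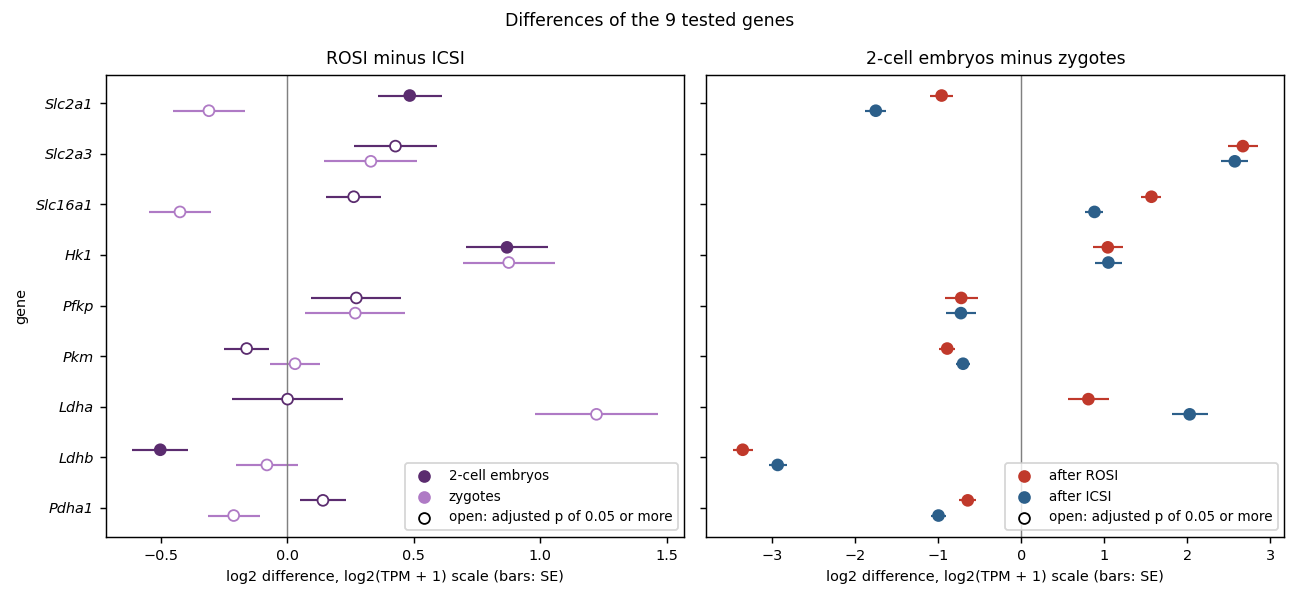
Log2 differences (bars show the SE) of the 9 members tested, ROSI minus ICSI on the left and 2-cell embryos minus zygotes on the right; filled points passed an adjusted p of 0.05. Hk1, Slc2a1 and Ldhb are filled among the ROSI and ICSI comparisons, all in 2-cell embryos, and all 18 points of the stage comparisons are filled.

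In zygotes the widest ROSI and ICSI differences were those of Ldha and Hk1, and neither passed. With limma 0 of 9 members passed, 3 had an unadjusted p under 0.05, and 0.146% of all genes tested passed. The means were 5.23 ± 2.56 TPM in ROSI zygotes and 1.56 ± 0.221 TPM in ICSI zygotes for Ldha (SD, n = 2 and 3; 3.35-fold, log2 difference 1.22, SE 0.24, limma adjusted p = 0.102). For Hk1 they were 1.73 ± 0.543 TPM in ROSI zygotes and 0.473 ± 0.0822 TPM in ICSI zygotes (SD, n = 2 and 3; 3.65-fold, log2 difference 0.88, SE 0.18, limma adjusted p = 0.115). Slc16a1 was 1.37-fold higher in ICSI than in ROSI zygotes (log2 difference -0.42, SE 0.12, limma adjusted p = 0.323).

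Ldha and Hk1 passed in zygotes when libraries were weighted by their quality (limma adjusted p = 0.0213 and 0.0192) and with protein-coding genes alone (0.0138 and 0.0257). Ldha also passed without ROSI zygote replicate 2 (0.0223), the library with the lower value, in a fit where 1 ROSI zygote library remains and is assumed to vary like the other groups. Spermatid markers summed to 173 and 90.5 TPM in ROSI zygote replicates 1 and 2, against 27.6 to 34.0 TPM in ICSI zygotes, where Smcp was at 0. Of the 2 ROSI zygote libraries the one with more of these markers also had more Ldha and Hk1, and the part of these markers in the differences was not tested.

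The zygote libraries were also uneven in small nuclear and nucleolar RNA, which made up 0.611% of TPM in ROSI zygote replicate 1 and 0.572% in ICSI zygote replicate 1 and over 1% in all 9 others. Between the 2 libraries low in it the log2 difference was 1.53 for Ldha and 0.99 for Hk1, and among the other 3 zygote libraries it was 0.85 and 0.72. For Slc2a1 the 2 values were -0.48 and -0.20, and for Slc16a1 -0.38 and -0.47. The ROSI and ICSI zygote libraries of these genes did not overlap, so any split of the libraries keeps their direction. For Pkm, whose libraries overlapped, the values were -0.043 and 0.043. The sets hold too few libraries for a test.

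No overlap between ROSI and ICSI zygotes was seen for 8 of 10 members, against 26.4% of the genes tested in either direction. The 8 include Slc16a7, which is not among the genes tested. Slc2a3, Slc16a7, Hk1, Pfkp and Ldha were the higher ones after ROSI and Slc2a1, Slc16a1 and Pdha1 the lower ones. The log2 differences of the other tested members were -0.31 for Slc2a1, 0.33 for Slc2a3, 0.27 for Pfkp, 0.03 for Pkm, -0.08 for Ldhb and -0.21 for Pdha1, with limma adjusted p between 0.797 and 1. Slc16a7 was 1.87-fold higher in ROSI zygotes by its means (no filter on low values, log2 difference 0.31, limma adjusted p = 0.707).

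The last comparison asks whether the change between the stages was of a different size after ROSI and after ICSI. With limma 0 of 9 members passed, 5 had an unadjusted p under 0.05, and 0.0182% of all genes tested passed. The change of Slc2a1 was 0.79 higher after ROSI (SE 0.19, limma adjusted p = 0.117), that of Slc16a1 0.69 higher (SE 0.16, limma adjusted p = 0.113) and that of Ldha smaller (log2 difference -1.22, SE 0.33, limma adjusted p = 0.138). Slc2a1 and Slc16a1 changed sides: their ROSI libraries lay below all ICSI libraries in zygotes and above all ICSI libraries in 2-cell embryos. With protein-coding genes alone these 3 members passed (limma adjusted p = 0.0378 for Slc2a1, 0.0329 for Slc16a1 and 0.034 for Ldha), in a setting where 627 genes passed in place of 4. Ldhb (-0.42, limma adjusted p = 0.271) and Pdha1 (0.35, 0.267) did not pass in either setting, and Slc2a3, Hk1, Pfkp and Pkm had differences between -0.19 and 0.10.

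Ratios within a library show how the balance of related genes stood at each stage. Slc2a1 and Slc2a3 were about level in 2-cell embryos, with a ratio of 0.835 to 1.35 after ROSI and 0.799 to 1.10 after ICSI, whereas in zygotes Slc2a1 was in excess by 22.6 and 29.8 after ROSI and by 45.1 to 98.4 after ICSI. The ratio of Slc16a1 to Slc16a7 was 108 to 211 in ROSI 2-cell, 221 to 469 in ICSI 2-cell, 13.9 and 18.3 in ROSI zygote and 30.8 to 51.5 in ICSI zygote libraries. The ROSI libraries were below the ICSI libraries at both stages, narrowly in 2-cell embryos. There Slc16a7 rested on 38, 25 and 17 reads after ROSI and on 3, 19 and 11 reads after ICSI. The ratio of Ldha to Ldhb was 0.0386 to 0.0489 in ROSI 2-cell, 0.0271 to 0.0382 in ICSI 2-cell, 0.00151 and 0.00331 in ROSI zygote and 0.000556 to 0.000804 in ICSI zygote libraries. It stayed below 1 throughout, and ROSI libraries were above ICSI libraries at both stages. These ratios are descriptions and were not tested.

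**Figure D3:**
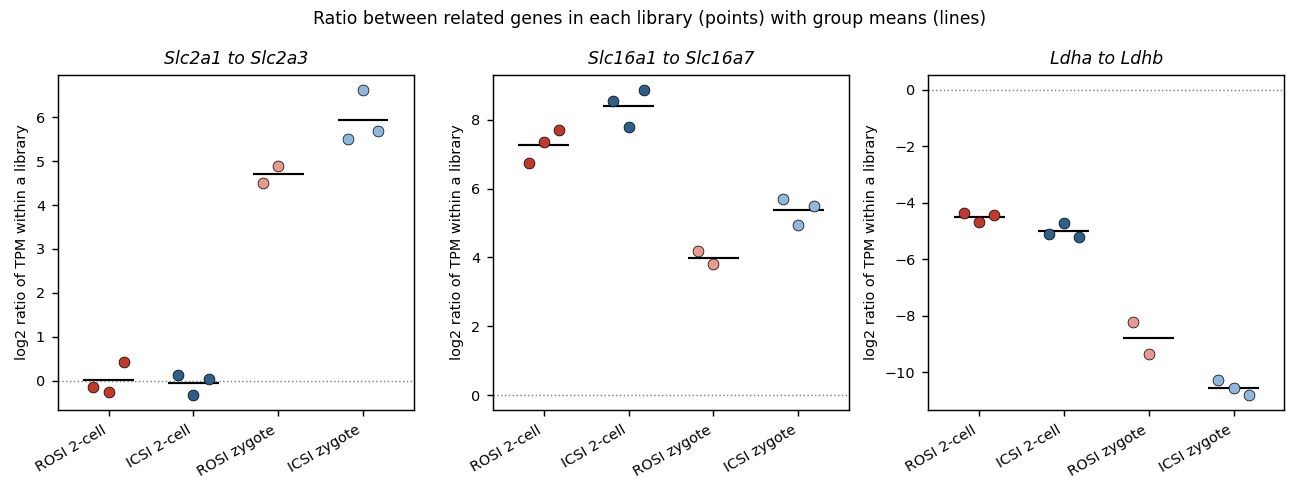
Log2 ratio of TPM within each library for the 3 pairs of related genes, with points for libraries and lines for group means; the dotted line marks equal levels. Slc2a1 and Slc2a3 are near equal in 2-cell embryos and far apart in zygotes, and Ldha remains below Ldhb in all 11 libraries.

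For the 3 members with the widest range between group means, the genes with the most similar pattern over the 11 libraries were found among 6850 genes that averaged at least 10 TPM. Those most like Ldhb were Arhgap10, Hmces and Erich5 (Pearson r = 0.999 each). Slc2a3 was most like Pgam1, a glycolytic phosphoglycerate mutase, Ptpn1, a tyrosine phosphatase, and Tomm20, a receptor of mitochondrial protein import (0.995 each). Ldha was most like Cops7a (0.956), Sord, the sorbitol dehydrogenase (0.955), and Mir743b (0.949). The 11 points share their stage, which carries most of the range, and no p is given.

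The wider pathway was described with 9 lists that leave the 10 members out. Between the stages 11 of 16 TCA cycle genes tested were lower in 2-cell embryos after both injections and 3 were higher. Of all genes tested 29.9% were lower and 29.5% higher after both. Its median log2 difference was -1.86 after ROSI and -1.64 after ICSI, against 0.19 and 0.0036 over all genes tested. Sdhd, a membrane subunit of succinate dehydrogenase, averaged 7.00 TPM in ROSI 2-cell and 5.49 TPM in ICSI 2-cell embryos, against 91.4 TPM in ROSI zygotes and 108 TPM in ICSI zygotes. Sdha, the flavoprotein subunit, and Idh3a, the catalytic subunit of isocitrate dehydrogenase, fell by 3.09 and 2.64 after ROSI and by 2.92 and 2.90 after ICSI. Idh3g, a regulatory subunit of the same enzyme, rose by 2.82 after ROSI and 2.38 after ICSI.

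Pyruvate entry was mixed, with 5 of 13 genes higher and 5 lower after both injections. The widest change was the rise of Pdp2, a phosphatase that activates pyruvate dehydrogenase: it averaged 145 TPM in ROSI 2-cell and 156 TPM in ICSI 2-cell embryos, against 3.44 TPM in ROSI zygotes and 2.92 TPM in ICSI zygotes (log2 difference 5.04 after ROSI and 5.32 after ICSI, limma adjusted p = 8.40e-10 and 2.63e-10). Pdhx, Dld and Dlat, which are structural and catalytic parts of the same complex as Pdha1, fell by 3.03, 2.31 and 2.07 after ROSI and by 2.98, 2.86 and 2.07 after ICSI.

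Of the glycolysis list 6 of 21 genes were higher and 7 lower in 2-cell embryos after both injections. Pgam1 rose by 2.66 after ROSI and 2.56 after ICSI, and Pfkfb3, which makes the activator of phosphofructokinase, by 2.72 and 1.87. Bpgm, the bisphosphoglycerate mutase, fell by 2.35 and 2.22, and Tpi1, the triosephosphate isomerase, by 2.00 and 1.92. Among other glucose transporters 2 of 9 were higher (Slc2a8 and Slc2a4) and 3 lower (Slc2a12 and Slc2a9 among them). Of monocarboxylate transport 2 of 5 were higher after ROSI (Slc16a3 and Slc16a8), 0 after ICSI, and 3 lower after both injections: Slc5a12, a sodium-coupled lactate transporter, and Bsg and Emb, the chaperone proteins that bring Slc16a transporters to the membrane. Bsg averaged 46.0 TPM in ROSI 2-cell and 53.6 TPM in ICSI 2-cell embryos, against 110 TPM in zygotes of both kinds.

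Of the malate-aspartate shuttle, which carries reducing equivalents into mitochondria, 2 of 6 genes were higher after ROSI (Got1 and Slc25a11), 0 after ICSI, and 3 lower after both (Mdh1, Slc25a13 and Got2, which encode its cytosolic dehydrogenase, a carrier and a mitochondrial aminotransferase). The pentose phosphate pathway had 3 of 7 higher and 2 lower: Taldo1, the transaldolase, rose by 3.51 after ROSI and 2.35 after ICSI, and G6pdx, its entry enzyme, fell by 2.80 and 1.84. Gluconeogenesis and glycogen had 2 of 15 higher and 9 lower, with Fbp1, Fbp2 and Gyg among those that fell and Pck2 among those that rose. Of 5 germ-cell isoforms of glycolytic enzymes 0 were higher and 2 lower after ROSI (Eno4 and Ldhc), and 3 were higher (Ldhc, Pgam2 and Pgk2) and 1 lower (Eno4) after ICSI. The stage change of Ldhc differed by -2.21 between the injections (SE 0.36, limma adjusted p = 0.0673) and that of Pgam2 by -2.43 (SE 0.48, limma adjusted p = 0.0874), neither of which passed.

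**Figure D4:**
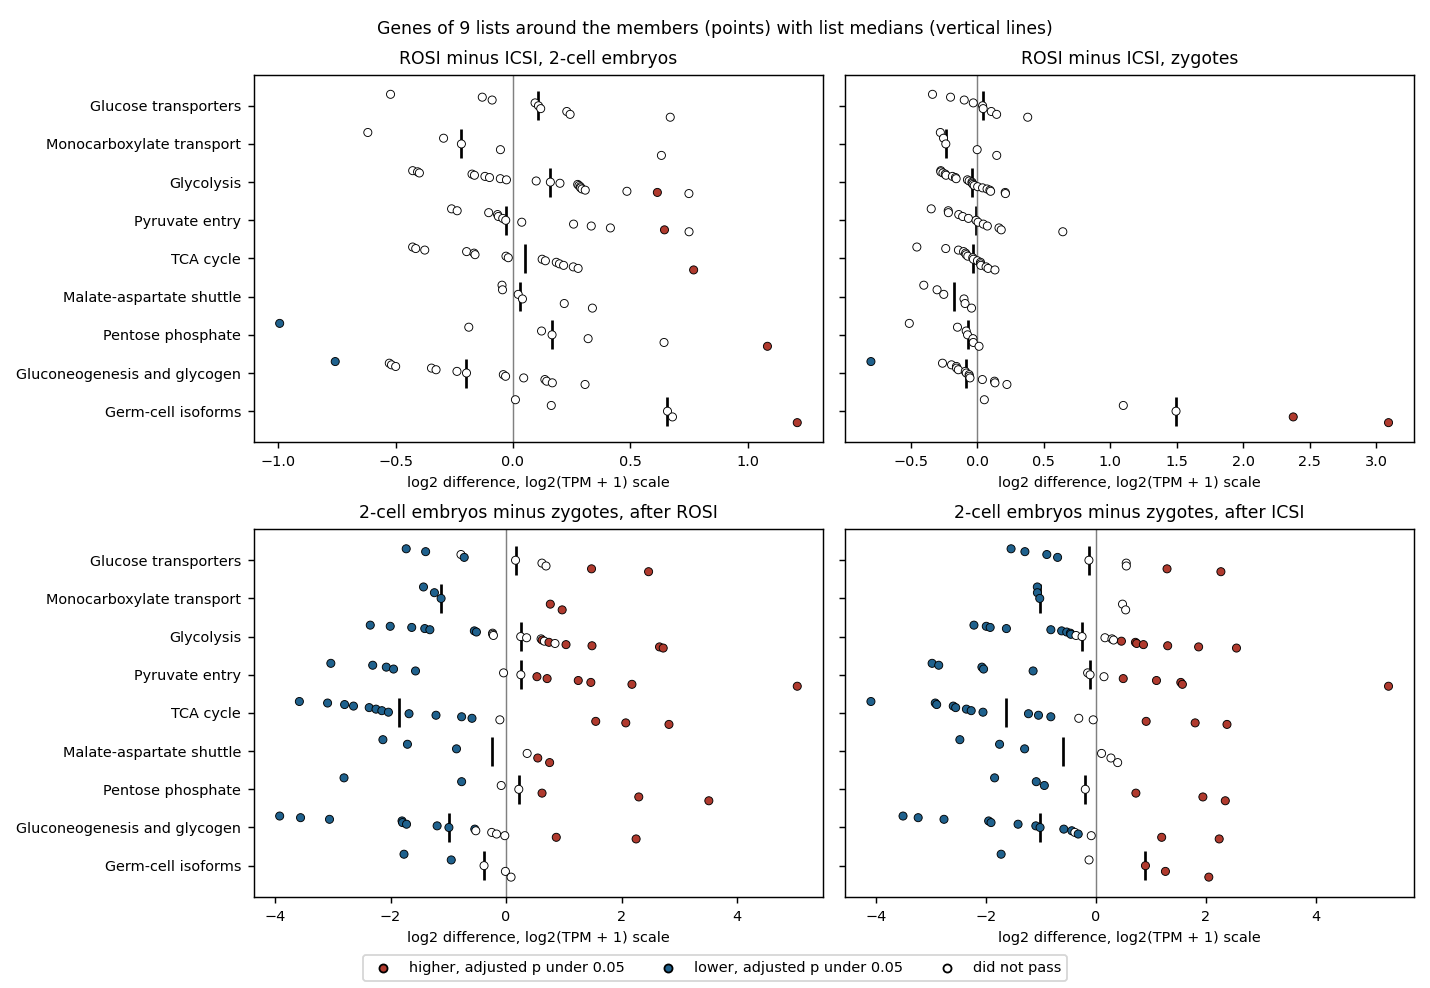
Log2 differences of the genes tested in 9 lists around the 10 members (points; red higher and blue lower at an adjusted p under 0.05, white not passed) with list medians as vertical lines. Few points are coloured in the ROSI and ICSI comparisons, where 9.51% of all genes tested passed in 2-cell embryos and 0.146% in zygotes. In the stage comparisons the TCA cycle median lies at -1.86 after ROSI and -1.64 after ICSI.

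Between ROSI and ICSI 2-cell embryos 9.51% of all genes tested passed, and of these lists the following did. Pfkfb3 (1 of 21 in glycolysis) averaged 31.6 TPM in ROSI and 20.4 TPM in ICSI 2-cell embryos (log2 difference 0.62, limma adjusted p = 0.0173). Pcx, the pyruvate carboxylase, was the 1 of 13 in pyruvate entry, at 10.7 TPM in ROSI and 6.50 TPM in ICSI 2-cell embryos (0.65, limma adjusted p = 0.0144), and Idh3b the 1 of 16 in the TCA cycle (0.77, limma adjusted p = 0.0342). In the pentose phosphate pathway 2 of 7 passed in opposite directions. Tkt, the transketolase, averaged 10.6 TPM in ROSI and 4.44 TPM in ICSI 2-cell embryos (1.08, limma adjusted p = 0.00681), and G6pdx 83.5 TPM in ROSI and 166 TPM in ICSI 2-cell embryos (-0.99, limma adjusted p = 0.00489). Stbd1, a glycogen-binding protein, was lower after ROSI (-0.76, limma adjusted p = 0.00551; 1 of 15). In a fit of the 2-cell libraries alone Stbd1 passed, and Pfkfb3, Pcx, Idh3b, Tkt and G6pdx did not (limma adjusted p from 0.054 upwards). Idh3b passed in 6 of 11 fits that left out 1 library. With protein-coding genes alone 5 of 13 genes of pyruvate entry were higher after ROSI, as were 2223 of all 15276 genes tested in that setting. With limma 0 of 9 glucose transporters, 0 of 5 monocarboxylate transport genes and 0 of 6 shuttle genes passed, with 2, 3 and 1 at an unadjusted p under 0.05.

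In zygotes Stbd1 was again the lower one after ROSI, at 42.5 TPM in ROSI and 75.2 TPM in ICSI zygotes (log2 difference -0.80, limma adjusted p = 0.0478). The others that passed were germ-cell isoforms, 2 of 5, where 0.146% of all genes tested passed. Ldhc, the lactate dehydrogenase subunit of the male germ line, had 29.4 and 13.3 TPM in ROSI zygotes, against 2.89, 3.13 and 3.06 TPM in ICSI zygotes (2.38, SE 0.27, limma adjusted p = 0.0102). Pgam2, a phosphoglycerate mutase of muscle and male germ cells, had 20.5 and 7.03 TPM in ROSI zygotes, against 0.507, 0.427 and 0.699 TPM in ICSI zygotes (3.09, SE 0.36, limma adjusted p = 0.0104). Ldhc was above Ldha in the 2 ROSI and the 3 ICSI zygote libraries alike. Ldhc is also 1 of the 13 spermatid markers. Neither Ldhc nor Pgam2 passed in a fit of the zygote libraries alone, with the replicate block or without ICSI zygote replicate 3 (limma adjusted p up to 0.23 for each), and the Stbd1 call held in 1 of 11 fits that left out 1 library. In 2-cell embryos Gapdhs, the sperm glyceraldehyde phosphate dehydrogenase and likewise among those markers, was the 1 of 5 that passed (1.21, limma adjusted p = 0.0198). It had 1.15 to 2.41 TPM in ROSI and at most 0.492 TPM in ICSI 2-cell libraries. Only ROSI libraries took Gapdhs past the filter of 1 TPM, so a lower call was hardly possible. With limma 0 genes of the other 7 lists passed in zygotes, and 3 of theirs had an unadjusted p under 0.05.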

How the data were processed

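RNA from zygotes and 2-cell embryos was sequenced in 11 libraries, made per the labels' protocols with ISOGEN II and a stranded SMART-seq kit from 1 ng of total RNA. The deposited values are TPM computed by the authors, 1 column per library, each summing to 1000000. The submitters' processing notes name fastp, Bowtie2, STAR 2.7.4a, featureCounts and mm10; the annotation, the strand setting and filters are not given in the sources used here.

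Reads were recovered from TPM and GENCODE M21 exon lengths (86.2% to 89.4% of values under 1000 reads whole within 0.01) and serve to describe depth. Genes reaching 1 TPM in 2 libraries or more (21938, 9 members among them) were fitted on log2(TPM + 1) with limma 3.58.1 in R 4.3.3 (4 group means over all 11 libraries, eBayes with trend), Benjamini-Hochberg threshold 0.05. The fit was tested on simulated data. Transcripts were compared with BLAST 2.17.0 (at least 95% identity over 100 bases), and python 3.11.15 with pandas 2.3.3 and numpy 2.4.6 did the rest.

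All 10 members are named in each comparison. Of each list, genes that passed ROSI against ICSI are named, up to 4 by smallest p, and, for the stages, up to 4 by largest difference among those passing after both injections. For the 3 members of widest range, the 3 named genes of highest correlation (mean of at least 10 TPM) are given. Slc16a3, Slc16a8, Got1, Slc25a11, Gdf9, Bmp15, Amhr2 and the germ-cell isoforms named by injection were chosen after their values were seen. Members and lists were chosen with earlier results of these data known. Alternatives were pseudocounts of 0.1 and 5, no filter or one of 5 TPM, median-ratio, quantile and protein-coding scaling, the largest locus left out, no trend, array weights, a replicate block, the compared groups alone, and each library left out.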

Additional observations from a re-analysis of the deposited data

How the results depend on the processing

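Of 1086 recomputed member values, 1005 were counted as unchanged. Those with a test kept their direction and side of the threshold. Values of Slc16a7 without a test were counted so where they moved by less than the SD within groups. Of the rest, 25 lost and 13 gained a pass, 33 changed sign and 10, all of Slc16a7, moved further without a test. Members passing ROSI against ICSI in zygotes (0) became 2 with protein-coding genes alone, 2 with array weights and 0 to 1 with 1 library left out (1 without ROSI zygote replicate 2). In 2-cell embryos the 3 became 1 with no filter, 0 with the compared groups alone and 1 to 3 with 1 library left out (1 without ICSI 2-cell replicate 1 or 2), while Slc16a1 was gained with quantile normalization and with protein-coding genes alone and Pkm with median-ratio scaling. For the difference of stage changes, 0 became 3 with protein-coding genes alone. The stage counts of 9 stayed between 7 and 10, the last with no filter, where Slc16a7 is tested too. Over all genes, calls ranged from 0 (groups alone) to 311 (array weights) against 32 in zygotes, from 85 (groups alone) to 3560 (protein-coding genes alone) against 2087 in 2-cell embryos, and from 0 to 627 against 4 for the difference of stage changes; with 1 library left out they ranged from 4 to 71, 947 to 2197 and 0 to 37. The causes were not tested.

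Each value that changed sign had missed the threshold. In zygotes, Ldhb became 0.0085 with median-ratio scaling, 0.033 with quantile normalization, 0.0015 with the largest locus left out and 0.016 with protein-coding genes alone, and Pkm ran from -0.020 to 0.094 with 1 library left out. In 2-cell embryos, Ldha became -0.00029 with a pseudocount of 5, -0.060 with median-ratio scaling and -0.056 with quantile normalization, and ran from -0.11 to 0.14 with 1 library left out. For the difference of stage changes, Slc2a3 became -0.30 with a pseudocount of 0.1, and Hk1 0.14 with a pseudocount of 5 and -0.21 to 0.20 with 1 library left out. Pfkp became -0.028 with a pseudocount of 5, -0.11 with median-ratio scaling, -0.13 with quantile normalization, -0.035 with the largest locus left out, -0.0061 with protein-coding genes alone and -0.12 with array weights, and ran from -0.15 to 0.10 with 1 library left out.

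The labels do not say that replicate numbers pair libraries. Deviations of same-numbered libraries correlated at 0.33 and 0.215 between ROSI and ICSI zygotes, which share 2 numbers only, and between -0.0432 and 0.0574 in the other pairs. With the replicate block, members passing were 0 in zygotes, 2 in 2-cell embryos, 9 and 9 between the stages and 0 for the difference of stage changes, where Hk1 became 0.0046 and Pfkp -0.075; Slc2a1 in 2-cell embryos had limma adjusted p = 0.0643. Depth limits Slc16a7 most, at 3 to 267 reads a library.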

Other observations

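Hk1, chosen for this after its values were seen, was also compared with the same 6850 genes. Those with the most similar pattern over the 11 libraries were Tsga8 (Pearson r = 0.962), Uqcrfs1, the Rieske iron-sulfur subunit of respiratory complex III (0.953), and Spata21 (0.951). Tsga8, known as a testis-specific gene, had 31.4, 26.4 and 34.0 TPM in ROSI 2-cell embryos and 13.6, 10.6 and 7.87 TPM in ICSI 2-cell embryos, against 5.21 and 1.31 TPM in ROSI zygotes and 0.398, 0.224 and 0 TPM in ICSI zygotes. The genes named here were picked for their likeness to Hk1 over the same libraries, so a shared pattern follows from the choice. Uqcrfs1 had 39.55, 43.78 and 43.37 TPM in ROSI 2-cell embryos and 31.77, 35.71 and 31.68 TPM in ICSI 2-cell embryos. In zygotes Uqcrfs1 had 30.9 and 31.85 TPM after ROSI and 28.06, 27.82 and 26.6 TPM after ICSI. Spata21 had 41.0, 33.1 and 43.5 TPM in ROSI 2-cell embryos and 22.5, 24.4 and 21.6 TPM in ICSI 2-cell embryos, against 14.5 and 11.5 TPM in ROSI zygotes and 8.53, 9.34 and 9.74 TPM in ICSI zygotes. The 11 points share stage and library, and no test was made.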
